A study of Mus musculus with 18 samples.

Results

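The milk-dominated secretory cells of the lactating mouse mammary gland were the cells of lactation libraries F11 and D6 in which transcripts of 8 milk genes, Csn1s1, Csn1s2a, Csn1s2b, Csn2, Csn3, Wap, Lalba and Glycam1, made 50% or more of the transcript counts (UMIs). Cells were kept where 500 or more genes were detected and mitochondrial transcripts made less than 20% of the UMIs. By this rule 6899 of the 12092 lactation cells were milk-dominated, out of 133710 cells of all 18 libraries passing the same limits. F11 held 3075 of 5342 cells (57.6%, Wilson 95% binomial interval 56.2 to 58.9) and D6 held 3824 of 6750 (56.7%, 55.5 to 57.8), intervals that cover counting error only. The milk share chose these cells, so the milk genes are described below without a test, and the tests concern genes that the rule did not use.

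In lactation the alveolar luminal cell turns to the export of protein, sugar, fat and minerals. Prolactin acts through STAT5 on the casein and whey protein genes, milk proteins pass through the endoplasmic reticulum and Golgi, lactose is made in the Golgi by a synthase whose subunits are B4galt1 and alpha-lactalbumin (Lalba), and lipid droplets leave the cell wrapped in a membrane that carries butyrophilin (Btn1a1) and xanthine dehydrogenase (Xdh). Caseins carry calcium and phosphate as micelles, Wap is the main whey protein of rodents, and Glycam1 is a mucin-like milk protein.

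The series profiled mouse mammary epithelium from the embryo to involution by droplet single-cell RNA sequencing. Both lactation libraries came from FVB/NJ mice lactating 10 days post birth, and both libraries of late pregnancy, F4 and B4, from FVB/NJ mice at pregnancy day 18.5. That day is the one in the labels, since the study's text is not uniform on the day of lactation or on how many mice were pooled. The labels name no transgene or treatment. Per the study's methods, glands of several mice were pooled for each time point and lineage-negative epithelial cells were sorted on CD24 and CD29, so a library is a pool of animals, and a gate on surface markers limits which secretory cells were caught. The replicates measure the spread between pools.

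The promoters of 3 of the 6 milk genes with an entry in the RefSeq promoter table held the letters TTCNNNGAA, the core that STAT5 and related factors bind, within the 250 bases before the start site. These 3 are shown because, of the genes that chose the cells, they held the motif. That of B4galt1, which also held it, is shown because it was the lactose synthase gene, outside the rule, among the named genes. All are on build GRCm38.p6, 5′ to 3′ along the gene, with the motif in capitals. They lie at chr5:87665958-87666207, plus strand (Csn1s1), chr5:87699426-87699675, minus strand (Csn2), chr15:103565082-103565331, minus strand (Glycam1) and chr4:40853985-40854234, minus strand (B4galt1), each just upstream of the transcribed part.
Csn1s1: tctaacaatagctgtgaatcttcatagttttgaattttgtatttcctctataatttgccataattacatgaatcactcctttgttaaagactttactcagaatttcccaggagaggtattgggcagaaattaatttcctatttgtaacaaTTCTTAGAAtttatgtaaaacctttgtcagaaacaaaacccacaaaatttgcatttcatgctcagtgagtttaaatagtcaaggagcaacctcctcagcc
Csn2: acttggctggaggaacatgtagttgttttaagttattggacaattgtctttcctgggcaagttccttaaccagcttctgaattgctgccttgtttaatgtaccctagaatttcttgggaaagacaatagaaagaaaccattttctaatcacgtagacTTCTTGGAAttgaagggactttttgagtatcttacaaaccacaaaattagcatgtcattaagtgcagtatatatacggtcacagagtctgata
Glycam1: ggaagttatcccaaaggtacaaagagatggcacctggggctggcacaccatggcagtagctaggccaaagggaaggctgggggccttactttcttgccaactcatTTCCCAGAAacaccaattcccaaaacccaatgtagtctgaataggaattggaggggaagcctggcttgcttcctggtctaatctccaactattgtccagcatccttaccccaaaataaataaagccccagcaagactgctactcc
B4galt1: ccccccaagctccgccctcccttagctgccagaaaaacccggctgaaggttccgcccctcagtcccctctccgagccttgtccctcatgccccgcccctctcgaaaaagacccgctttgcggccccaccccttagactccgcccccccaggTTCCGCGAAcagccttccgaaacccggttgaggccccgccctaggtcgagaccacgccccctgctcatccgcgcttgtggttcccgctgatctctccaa
The motif began 100 bases before the start in Csn1s1, 93 in Csn2, 145 in Glycam1 and 99 in B4galt1. It reads the same on both strands, since its outer letters are their own reverse complement. A match is a stretch of letters and not a measured binding site. Among 8168 tested genes with an entry, 559 (6.84%) held the motif, against 2306 of all 32851 entries (7.02%). It was in 115 of 1437 genes (8.003%) that were higher in milk-dominated cells than in other luminal cells, in 98 of 1414 lower genes (6.93%) and in 2 of 60 named genes of that comparison with an entry, and these shares were not tested.

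The lactation libraries differed from each other in depth and in the milk share of non-epithelial cells, and every comparison was therefore made within libraries or shown for each. The median milk-dominated cell at 50 to 75% milk held 6806 UMIs in F11 and 14108 in D6, of which 2196 and 4629 were outside the milk genes. At 75% or more the medians were 12031 and 22235 UMIs, with 1884 and 4044 outside milk. Non-epithelial cells, which should lack milk transcripts, had a median milk share of 25% in F11 (415 cells) and 5.08% in D6 (1909 cells), so luminal cells of F11 near that share stood at the level of non-epithelial cells. Whether free milk RNA or doublets gave these milk transcripts was not tested. Of those non-epithelial cells 7.71% in F11 and 4.03% in D6 reached 50%. Of the barcodes with 50% or more milk, 4350 of 7425 in F11 failed the limits on genes and mitochondrial share, against 432 of 4256 in D6. The libraries shared 134 barcodes, and 16 milk-dominated cells carried a shared barcode.

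**Figure D1:**
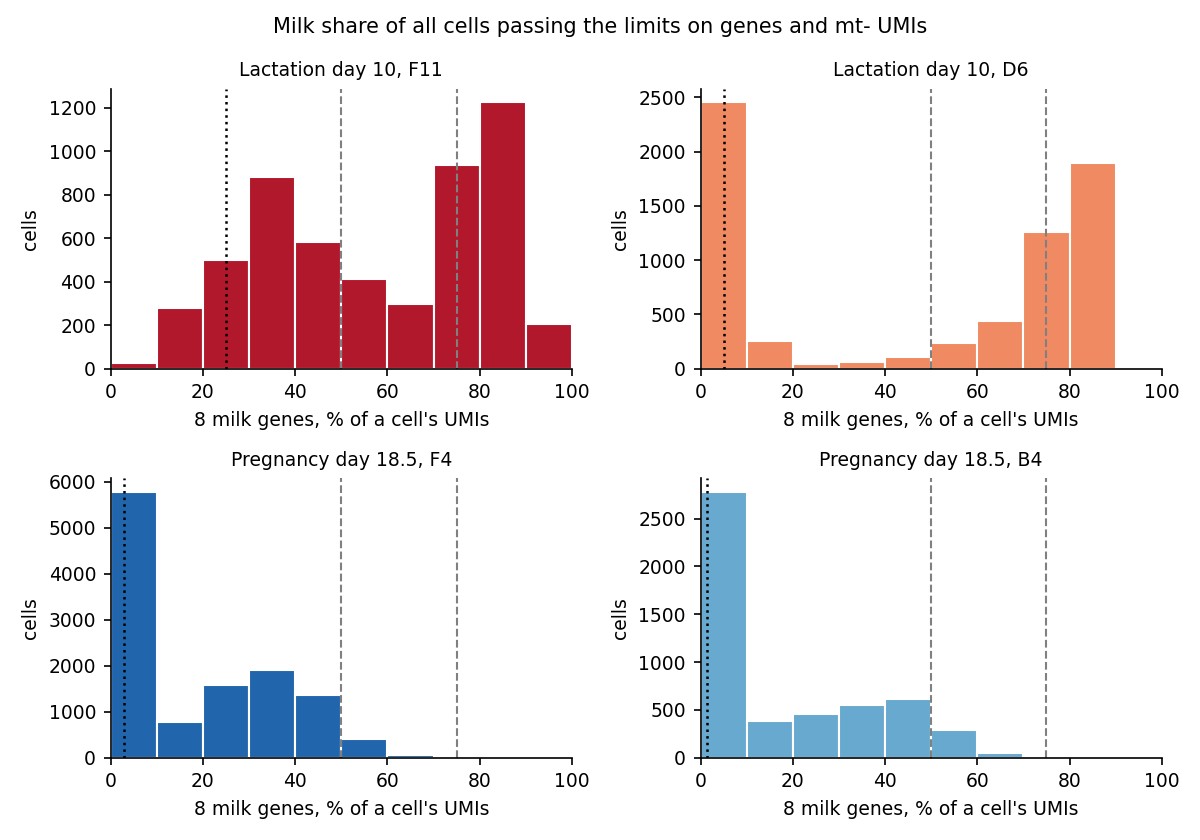
Number of cells (y axis) by share of UMIs from the 8 milk genes in percent (x axis) in the lactation and pregnancy day 18.5 libraries; dashed lines mark 50 and 75%, and the dotted line the median milk share of non-epithelial cells. F11 and D6 hold most of their cells above 50%, whereas 471 cells of F4 and 350 of B4 pass that line, and the dotted line stands at 25% in F11 and 5.08% in D6.

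Milk-dominated cells were largely a feature of lactation, with a small fraction in late pregnancy. At pregnancy day 18.5 the rule was met by 471 of 11903 cells in F4 (3.96%) and 350 of 5138 in B4 (6.81%). The post-involution library held 2 among 10079 cells, and the other 13 libraries held 0, which allows a share of up to 0.0223 to 0.172% by library (3 cells of its total). In lactation 1997 of the F11 cells and 2736 of the D6 cells were at 75% or more, and in pregnancy 3 cells of B4 reached that level. On either side of the 50% line F11 had 219 cells at 45 to 50% (median 688 genes and 2907 UMIs) and 218 at 50 to 55% (792 genes and 4232 UMIs), and D6 had 52 (1518 genes) and 91 (1640 genes), so that cell numbers were close in F11 and rose in D6. At 75% F11 had 368 cells at 70 to 75% and 568 at 75 to 80%, with 886 genes in each, and D6 had 421 (1375 genes) and 834 (1331 genes).

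The label of secretory luminal cells was checked against keratins and the membrane markers outside the rule. Luminal keratins (Krt8 plus Krt18) exceeded basal keratins (Krt5 plus Krt14) in 73.0% of F11 and 85.7% of D6 cells at 50 to 75% milk, and in 67.8% and 80.5% at 75% or more. Basal keratins exceeded luminal ones in 8.44% and 1.84%, and in 4.56% and 1.35%. In the rest the counts were equal, mostly because no keratin UMI was seen. Cells without a keratin UMI made 16.4% and 11.5% at 50 to 75% milk, and 23.4% and 17.0% at 75% or more. Krt8 stood at 702 and 524 CPM in F11 and 965 and 509 CPM in D6 in cells at 50 to 75% milk and at 75% or more. Luminal cells below 50% milk, which were chosen for these keratins, held 1112 and 1195 CPM. Here and below CPM means counts per 1000000 UMIs outside the 8 milk genes, so that a high milk share did not by itself lower other genes. The number of other genes per cell was close between bands at equal depth. Thinned to 500 UMIs outside milk, the median cell showed 305, 294 and 291 other genes across the 3 bands in F11 and 300, 283 and 298 in D6.

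Within the milk itself, Csn2, Wap and Csn1s1 led. Csn2, encoding beta-casein, made 22.5% of the milk UMIs of milk-dominated cells in F11 and 23.9% in D6. Wap made 19.0% and 21.9%, Csn1s1 17.1% and 18.0%, Csn1s2a 15.5% and 15.6%, and Csn1s2b 13.8% and 14.4%. Csn3, the kappa-casein that caps the micelle, made 9.57% of the summed milk UMIs in F11 and 4.13% in D6. Its median share per cell was 6.10% and 3.61%, and it was the leading gene in 4.52% of F11 cells and 0% of D6 cells. Glycam1 made 1.90% and 1.56%, and Lalba, the lactose synthase subunit, 0.688% and 0.535%. Csn2 was the leading gene in 43.6% of F11 and 47.0% of D6 cells and Wap in 30.9% and 39.5%. The share of cells led by Wap was higher above 75% milk (38.0% and 43.6%) than between 50 and 75% (17.8% and 29.1%).

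The milk of the cells that passed the same rule in late pregnancy had another make-up. Csn1s2b, a calcium-sensitive casein, made 0.116% of milk UMIs in F4 and 0.174% in B4, and was 97.1-fold higher in lactation. Glycam1 moved the other way, with 12.8% and 12.9% in pregnancy, 7.42-fold the lactation share. Csn1s2a was higher in pregnancy (26.2% and 23.6%), as was Csn2 (28.1% and 29.3%), and Csn1s1 (12.7% and 13.9%) and Wap (13.1% and 14.9%) were lower than in lactation. For each of these 6 genes the pregnancy and lactation libraries did not overlap. The same was so for 4529 of the 9956 genes outside the milk set tested between these stages. Lalba (0.442% and 0.630%) and Csn3 (6.42% and 4.66%) overlapped with the lactation range. The milk genes set the rule in both stages, so these shares carry no test.

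**Figure D2:**
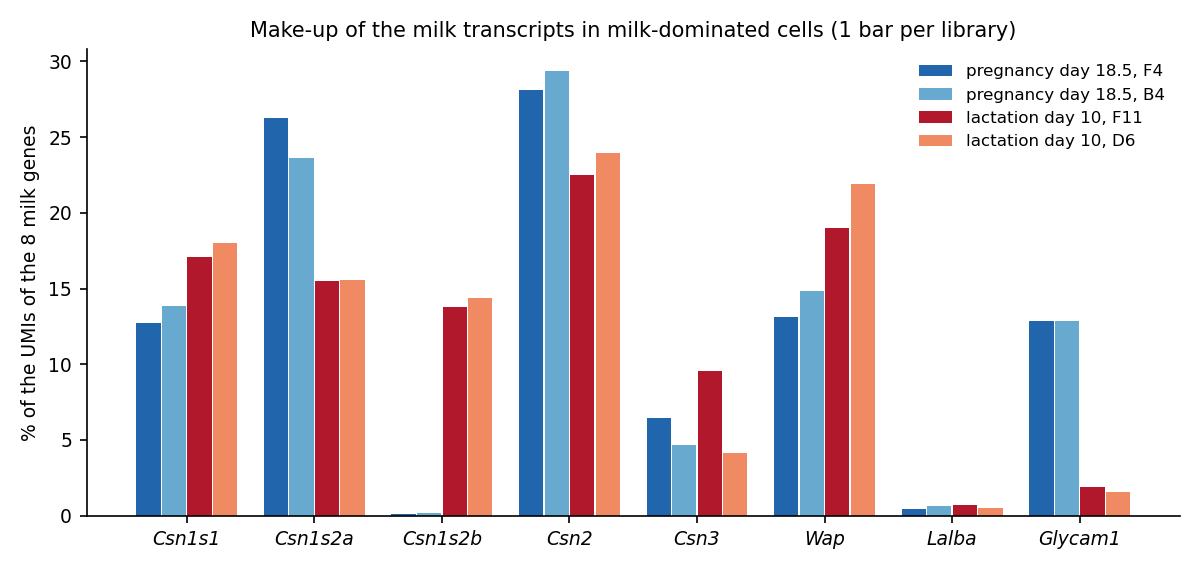
Share of each of the 8 milk genes in the milk UMIs of milk-dominated cells, in percent (y axis), by library (2 of pregnancy day 18.5 and 2 of lactation). Csn1s2b stands at 13.8% and 14.4% in lactation and at 0.116% and 0.174% in pregnancy, and Glycam1 at 12.8% and 12.9% in pregnancy and 1.90% and 1.56% in lactation.

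To see what else marked these cells, counts were summed per library over cells at 50 to 75% milk, cells at 75% or more, and luminal cells below 50% (Krt8 plus Krt18 above Krt5 plus Krt14; 996 cells in F11 and 525 in D6), and the mean of both milk bands was compared with the luminal cells within library. Of 10468 genes tested, 3714 differed (35.5%; edgeR quasi-likelihood test, Benjamini-Hochberg adjusted p under 0.05), 1828 higher (17.5%) and 1886 lower (18% of genes tested). These percentages are the background for the counts of gene groups that follow. The cells came from the same pools and were chosen by milk share, so a gene that moves with the milk genes in the same cells differs by that choice. Without the composition scaling of the main comparison (TMM), 1001 genes were higher and 2982 lower, and the median gene shifted from 0.01 to −0.31 on the log2 scale. The call count rested on both libraries: it was 0 without D6 (1344 at unadjusted p under 0.05; edgeR) and 347 without F11, when the spread came from luminal cells of other FVB/NJ libraries. The values below are TMM-scaled CPM for luminal cells below 50% milk, cells at 50 to 75% and cells at 75% or more, in that order.

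Among the most strongly raised genes outside the milk set were those of a growth factor, a chemokine, a gap junction protein and mineral transporters. Egf, the epidermal growth factor secreted into milk, stood at 3.40, 45.5 and 89.7 CPM in F11 and 3.87, 71.3 and 153 CPM in D6. It rested on 10 counts in the luminal cells of each library, and rose in every step of both libraries, 22.5-fold higher on average (log2 difference 4.49, SE 0.251, adjusted p = 3.56e-06). Under the alternative settings its log2 difference ran from 3.47 to 8.84. Ccl28, a chemokine that draws IgA-producing plasma cells to the lactating gland, stood at 39, 332 and 665 CPM in F11 and 12, 95.9 and 202 CPM in D6. Its level was higher in F11 than in D6 throughout, and its rise was 11.8-fold (log2 difference 3.57, SE 0.220, adjusted p = 5.11e-06). Gjb1, the gap junction protein connexin 32, was at 10.2, 56.8 and 147 CPM in F11 and 8.52, 56.8 and 128 CPM in D6. Both libraries followed the same course (9.43-fold, adjusted p = 7.17e-06). H2-Q1, a class I histocompatibility gene with close paralogs that may share its reads, was at 9.85, 112 and 221 CPM in F11 and 24.8, 202 and 453 CPM in D6 (13.7-fold, adjusted p = 5.11e-06).

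The other leading genes included 2 of mineral transport. Atp2b2, the plasma membrane pump that moves calcium into milk, stood at 11.9, 84.4 and 153 CPM in F11 and 31, 241 and 333 CPM in D6, rising at each step in both libraries (9.34-fold, adjusted p = 8.23e-06). Slc34a2, a sodium-dependent phosphate carrier, stood at 57.7, 464 and 725 CPM in F11 and 134, 882 and 1185 CPM in D6 (8.70-fold, adjusted p = 1.31e-05). Pthlh, the parathyroid hormone-related protein that mobilises maternal calcium, was not among the 10 largest rises and was at 12.2, 75.1 and 98.2 CPM in F11 and 12.8, 74.4 and 103 CPM in D6. It was flat between the milk bands relative to its step from the luminal cells (6.92-fold, adjusted p = 1.02e-05). Steap1 (10.3-fold), Drd4, a dopamine receptor (8.27-fold), and Qsox1, which forms disulfide bonds in secreted proteins (7.62-fold), completed the leading genes with Cidea. Of 24 tested genes of mineral and ion transport, 14 were higher and 4 lower, the pump subunit Atp1b1 with one of the largest falls, with a median log2 difference of 1.11 against 0.01 for all genes.

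Genes of milk lipid were raised as a group. Of 27 tested genes of fatty acid and triglyceride synthesis, 20 were higher and 2 lower (median log2 difference 1.38, all genes 0.01). Cidea, which coats lipid droplets and takes part in milk lipid secretion, stood at 1165, 4924 and 12803 CPM in F11 and 873, 4942 and 8950 CPM in D6, among the most abundant genes outside the milk set (7.23-fold, adjusted p = 3.22e-05). Olah, the thioesterase that ends fatty acid synthesis early and yields the medium chains of milk fat, was at 267, 1285 and 2439 CPM in F11 and 201, 1035 and 1644 CPM in D6. It rose at each step in both libraries (6.57-fold, adjusted p = 1.99e-05). The desaturase Fads2 and the elongase Elovl5 were higher by 2.73 and 2.61 on the log2 scale, and Fasn, fatty acid synthase, was at 403, 1411 and 1627 CPM in F11 and 594, 1378 and 2300 CPM in D6 (log2 difference 1.75). Lpl, which releases fatty acids from circulating lipid, and Thrsp, a lipogenic regulator, were higher by 2.18 and 2.10. Of the fatty acid carriers, Fabp3 was at 6368, 20240 and 32679 CPM in F11 and 2513, 9812 and 18117 CPM in D6 (4.62-fold higher, adjusted p = 0.000130), whereas Fabp4, abundant in adipocytes and capillary endothelium, was lower at 2484, 1042 and 1185 CPM in F11 and 6361, 1155 and 903 CPM in D6, but higher by 0.76 on the log2 scale without cells carrying non-epithelial markers.

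The membrane markers Btn1a1 and Xdh were raised, but were far from absent in luminal cells below the line. Btn1a1 stood at 384, 938 and 1163 CPM in F11 and 697, 2076 and 2239 CPM in D6 (2.90-fold, log2 difference 1.54, SE 0.213, adjusted p = 0.000341). Xdh stood at 92.7, 271 and 391 CPM in F11 and 163, 461 and 520.3 CPM in D6 (3.24-fold, log2 difference 1.70, SE 0.203, adjusted p = 0.000143). Of 13 tested genes of the milk fat globule, 7 were higher and 2 lower (median 0.69). Of 20 tested genes of cholesterol synthesis 4 were higher and 1 lower (median 0.41), near the 17.5% of all genes that were higher. Insig1 (log2 difference 1.92) and Sqle (1.001) were among the higher genes, and Hmgcs1, an early enzyme of the pathway, was lower (−0.90). Hmgcs1 was not called against luminal cells at 25 to 50% milk (−0.15), at 1000 genes per cell (−0.27), without the block or with the pooled spread, and Insig1, Sqle and Btn1a1 lost the call under the last 2 of these and Sqle also at equal depth (edgeR).

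Other secreted proteins and the machinery that makes them were higher as well. Of 18 tested genes of other milk proteins, 12 were higher and 2 lower (median 1.49). Trf, transferrin, reached the level of a major transcript, at 7705, 16929 and 20384 CPM in F11 and 7740, 30821 and 34089 CPM in D6 (log2 difference 1.65, adjusted p = 0.00114). Cel, the bile salt-stimulated lipase of milk, was at 265, 1068 and 1534 CPM in F11 and 205, 1559 and 2730 CPM in D6 (6.82-fold, adjusted p = 8.42e-05), and Pigr, which carries IgA across the cell, at 111, 590.0 and 791 CPM in F11 and 227, 951 and 1191 CPM in D6 (log2 difference 2.42). Of 39 tested genes of protein translocation and folding in the endoplasmic reticulum, 21 were higher and 1 lower (median 0.64). Ssr4, a subunit of the translocon-associated complex, led these at 738, 1619 and 3086 CPM in F11 and 345, 1243 and 2757 CPM in D6 (adjusted p = 0.000244), with Tram1 at 1.94 and Spcs3, of the signal peptidase, at 1.67 on the log2 scale. Of 12 tested regulators of the stress response of this compartment, 5 were higher and 2 lower (median 0.43), with the asparagine synthetase Asns at 1.61, Xbp1 at 1.14 and Atf4 at 0.55, of which Xbp1 lost its call without the block and with the pooled spread, and Atf4 under these, without TMM, at 1000 genes per cell, without cells carrying non-epithelial markers and against luminal cells at 25 to 50% milk. Ribosomal protein genes had few calls, with 6 of 90 higher and 0 lower (edgeR; median 0.16), and the libraries went different ways. Their summed CPM was 164833, 162647 and 157425 in F11 and 128267, 166834 and 194070 in D6.

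Lactose synthesis and nutrient entry followed the same direction in part. B4galt1, the lactose synthase gene whose promoter is printed above, stood at 312, 927 and 1590 CPM in F11 and 273, 995 and 1116 CPM in D6 (3.90-fold, log2 difference 1.96, SE 0.227, adjusted p = 0.000124). Of 13 tested genes of lactose synthesis, 7 were higher and 1 lower (median 0.73), among them the glucose carrier Slc2a1 (log2 difference 1.29). Among 14 tested amino acid carriers 6 were higher and 3 lower (median 0.58), led by Slc7a5 (1.94), which imports large neutral amino acids.

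Members of the prolactin pathway were split. Of 18 tested genes, 5 were higher and 5 lower, with a median of 0.22 (−0.11 without TMM). Stat5a, the factor through which prolactin acts, was at 24.8, 41.6 and 58.7 CPM in F11 and 24.4, 59.7 and 75.8 CPM in D6 (2.34-fold, adjusted p = 0.000675), and Stat5b had a log2 difference of 1.10. Elf5, a factor of alveolar fate, was at 149.7, 279 and 329 CPM in F11 and 119, 304 and 395 CPM in D6 (2.42-fold, adjusted p = 0.000854), while the receptor Prlr (−1.09) and the feedback inhibitor Socs2 (−0.65) were lower. Elf5 was not called against luminal cells at 25 to 50% milk (0.47), nor Stat5a at equal depth (0.63; edgeR). Translation control had 5 higher and 1 lower of 13 (median 0.18, −0.14 without TMM). Involution and lysosome genes had 5 higher and 3 lower of 15 (median 0.10, −0.23 without TMM), with Igfbp5, a binding protein of insulin-like growth factors known from involution, lower at 521, 153 and 35 CPM in F11 and 832, 357 and 35.5 CPM in D6. The medians without TMM moved with that of all genes, from 0.01 to −0.31, and these 3 lists lay above it under both scalings. Mitochondrial energy genes had 3 higher and 2 lower of 17 (median 0.44).

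**Figure D3:**
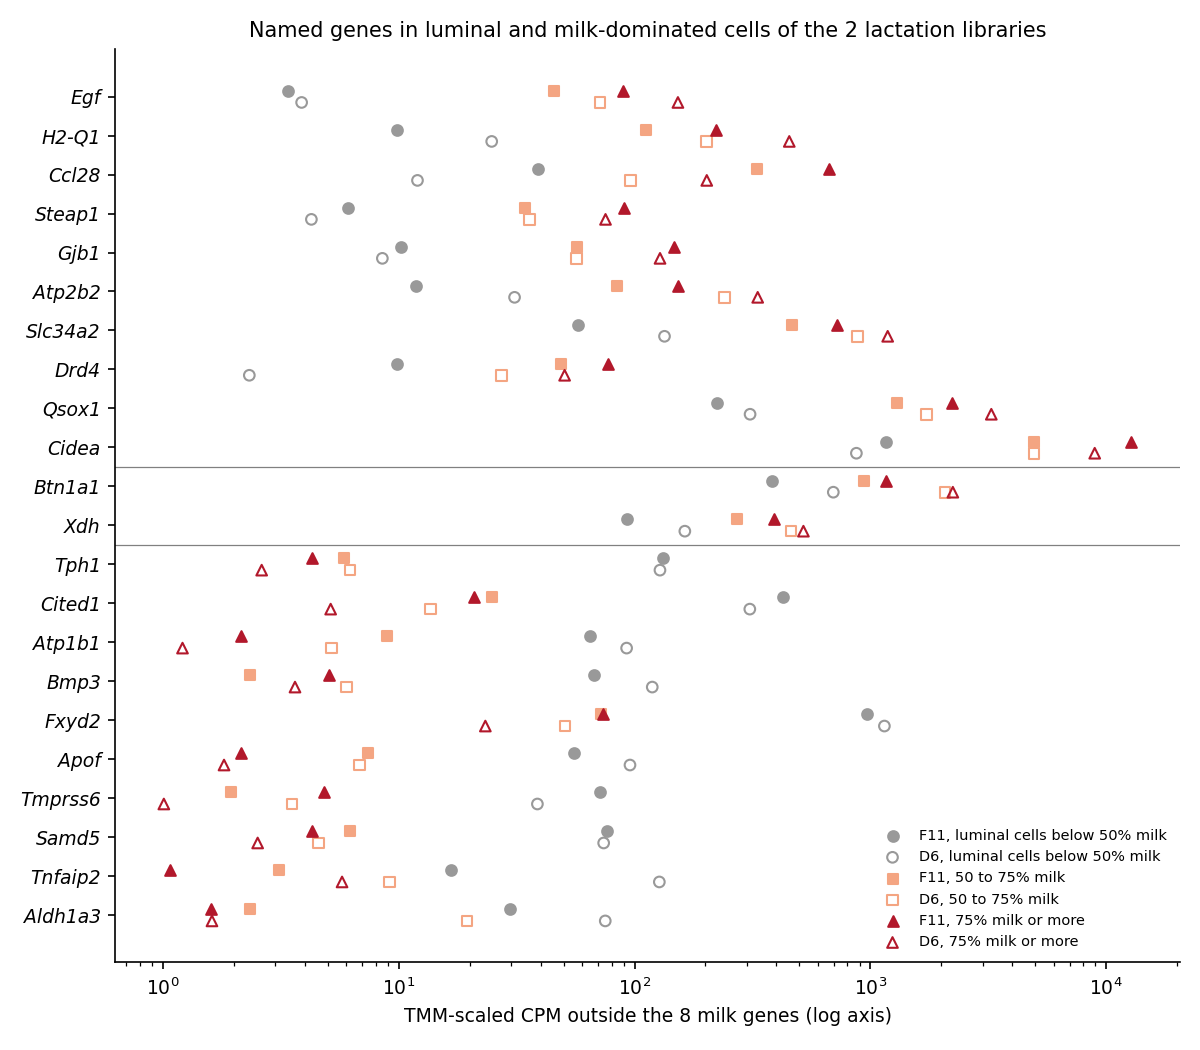
TMM-scaled CPM outside the 8 milk genes (x axis, log scale) of named genes (y axis): circles are luminal cells below 50% milk, squares cells at 50 to 75% and triangles cells at 75% or more, filled for F11 and open for D6. The raised genes at the top move to the right in both libraries, as Egf from 3.40 to 89.7 CPM in F11 and from 3.87 to 153 CPM in D6, and the lowered genes at the bottom move to the left, as Tph1 from 132 to 4.27 and from 128 to 2.62 CPM.

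Genes of the hormone-sensing mature luminal lineage were among the lower ones. Of 12 tested mature luminal genes, 0 were higher and 9 lower, with a median log2 difference of −3.31, the lowest of the epithelial lists. Tph1, the first enzyme of serotonin synthesis, had the largest fall, at 132, 5.83 and 4.27 CPM in F11 and 128, 6.21 and 2.62 CPM in D6 (29.1-fold lower, log2 difference −4.86, SE 0.192, adjusted p = 5.40e-07). Cited1, a coactivator of the oestrogen receptor, was at 425, 24.9 and 20.8 CPM in F11 and 308, 13.7 and 5.14 CPM in D6 (26-fold lower, adjusted p = 1.78e-05). Against luminal cells at 25 to 50% milk alone, 5 of 11 tested mature luminal genes were lower (median −1.68), and Tph1 (−3.14) and Cited1 (−2.47) were not called (edgeR). Areg, the amphiregulin made by these cells, fell by 3.30 on the log2 scale. The luminal cells below the line were of any lineage, and the part of their make-up in these falls was not tested. Luminal progenitor genes were divided, 4 higher and 5 lower of 12 (median −0.50). Aldh1a3, a retinaldehyde dehydrogenase of luminal progenitors, was at 29.5, 2.33 and 1.60 CPM in F11 and 75.1, 19.5 and 1.61 CPM in D6 (log2 difference −3.79, adjusted p = 0.000183), whereas Elf5, also on this list, was higher.

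Ion pump subunits were part of the fall too. Atp1b1, the beta subunit of the sodium pump, was at 64.5, 8.94 and 2.14 CPM in F11 and 92.6, 5.18 and 1.21 CPM in D6 (24.5-fold lower, adjusted p = 8.23e-06). Fxyd2, a regulator of the same pump, was at 966, 71.9 and 73.4 CPM in F11 and 1148, 50.8 and 23.3 CPM in D6 (21.4-fold lower). Bmp3 (−4.45), the apolipoprotein gene Apof (−4.37), the membrane protease gene Tmprss6 (−4.28), Samd5 (−4.18) and Tnfaip2 (−3.89) completed the leading lower genes on the log2 scale. Bmp3, Fxyd2 and Tmprss6 lost the call against luminal cells at 25 to 50% milk (−2.59, −2.38 and −2.78). Of 10 epithelial structure genes 1 was higher and 5 lower (median −0.62), with Krt7 at −3.15, Krt19 at −1.46 and the tight junction gene Cldn4 at −1.46. Of 13 cell cycle genes tested 1 was higher and 9 lower (median −1.63). Stmn1 (−1.63) and Hmgb2 (−1.40) fell, and the 1 higher gene was the proliferation marker Mki67 (0.83, adjusted p = 0.0352). Of the cell cycle genes 0 were higher with DESeq2, at equal depth, at 1000 genes per cell or without TMM (edgeR for the last 3).

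Many markers of non-epithelial cells were lower in milk-dominated cells than in luminal cells below the line. Of the genes tested, 4 of 10 immune, 8 of 11 endothelial and mural, 7 of 9 fibroblast, 6 of 9 adipocyte and 2 of 5 erythroid genes were lower, and 0 of any of these lists were higher (edgeR). H2-Aa, a class II histocompatibility gene of antigen-presenting cells, was at 54.3, 19.1 and 15.5 CPM in F11 and 606, 38.1 and 34.2 CPM in D6, with the D6 luminal cells far above the rest. The share of cells with 3 or more UMIs of a non-epithelial marker set was 9.54% of luminal cells below 50% milk, 4.17% of cells at 50 to 75% and 0.451% at 75% or more in F11, and 34.1%, 7.08% and 1.94% in D6. The tested immune genes summed to 398, 184 and 159 CPM in F11 and 3453, 234 and 235 CPM in D6, and the adipocyte genes to 1632, 621 and 893 CPM in F11 and 5050, 743 and 648 CPM in D6. The fibroblast genes summed to 254, 156 and 71.3 CPM in F11 and 1079, 163 and 144 CPM in D6, and the endothelial and mural genes to 310.4, 141 and 89.4 CPM in F11 and 751, 145 and 88 CPM in D6. Of 13 tested basal genes, an epithelial list, 2 were called lower, a share under the 18% of all genes that were lower. All 13 had log2 differences between −2.51 and −1.13, with a median of −1.52 against 0.01 for all genes. The basal genes summed to 2255, 2387 and 1198 CPM in F11 and 2312, 389 and 225 CPM in D6. Without the cells carrying non-epithelial markers, 2525 of the 2538 genes called in both versions kept their direction, but in these lists 5 adipocyte, 5 immune and 3 fibroblast genes were then higher, and 1 fibroblast and 1 endothelial gene lower. Of all 10018 genes tested in that setting 1465 were higher and 1466 lower. It removes cells by genes of these same lists, mostly from the luminal cells. The part of cells carrying such markers in the other falls was not tested. Malat1, an RNA retained in the nucleus, was at 47487, 29133 and 33844 CPM in F11 and 46626, 30658 and 18972 CPM in D6 (log2 difference −0.76), and of 5 nuclear-retained RNAs 0 were higher and 2 lower (edgeR, median −0.27). Malat1 lost the call at a milk limit of 40%, without the block and with the pooled spread. In unscaled CPM it stood at 42011 in F11 and 14384 in D6 in cells at 85% milk or more. Immediate early and heat shock genes had 1 higher and 1 lower of 16 (median 0.08, −0.24 without TMM), with Atf3 at −1.02 and Zfp36 at 0.64. Both lost the call with the pooled spread. Zfp36 also lost it without TMM, without the block, at 1000 genes per cell and at a milk limit of 60%. It was not called either without cells carrying non-epithelial markers or against luminal cells at 25 to 50% milk.

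**Figure D4:**
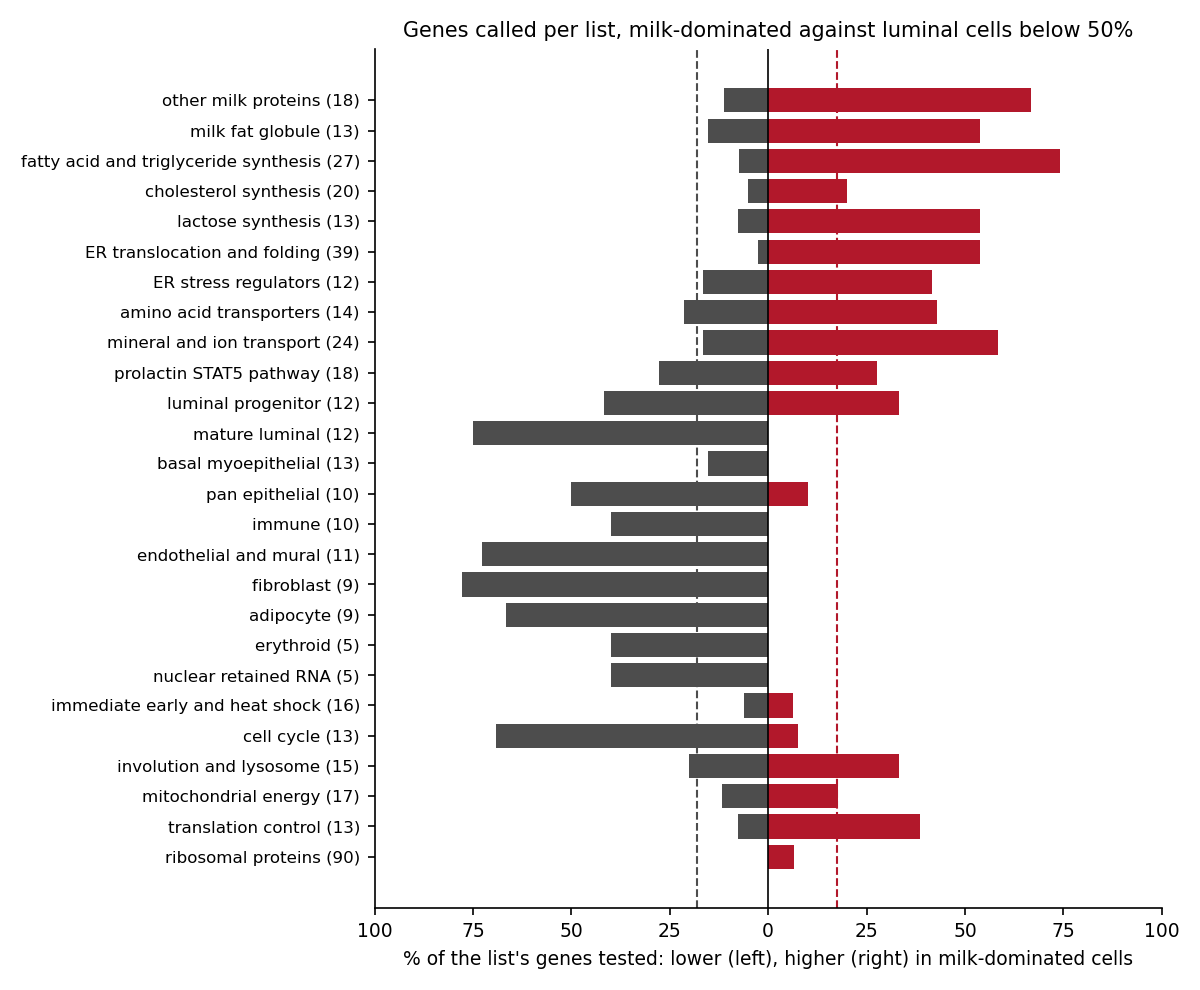
Percent of tested genes of each list (x axis) that were higher or lower in milk-dominated cells than in luminal cells below 50% milk; dashed lines give the share of all genes tested, 17.5% higher and 18% lower. Lists of milk protein, lipid and mineral transport genes lie beyond the line for higher genes, and mature luminal, cell cycle and non-epithelial lists beyond that for lower genes.

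Within the milk-dominated cells, those at 75% milk or more were compared with those at 50 to 75% in the same libraries. Of 10468 genes 135 differed (1.29%; edgeR quasi-likelihood test, adjusted p under 0.05), 20 higher (0.191%) and 115 lower (1.1% of genes tested). Gjb1, connexin 32, went from 56.8 to 147 CPM in F11 and from 56.8 to 128 CPM in D6, 2.41-fold higher (log2 difference 1.27, SE 0.181, adjusted p = 0.0107). Ttyh1, a membrane protein of chloride-channel type, went from 24.1 to 72.1 CPM in F11 and from 19.1 to 46.4 CPM in D6 (2.69-fold, adjusted p = 0.0130), and Gm1673, Clec12a and Steap1 were the other leading higher genes. The lower genes were larger in size of change. Basp1, a membrane-associated signalling protein, went from 21.4 to 2.14 CPM in F11 and from 109.6 to 8.47 CPM in D6, 11.8-fold lower (adjusted p = 0.000192), and Igfbp5 went from 153 to 35 CPM in F11 and from 357 to 35.5 CPM in D6 (6.77-fold lower, adjusted p = 0.00231). The secreted ribonuclease Rnase1 (log2 difference −3.87), Fcgbp (−2.76) and the defensin Defb1 (−2.48) followed. No gene was called when the library block was left out (466 at unadjusted p under 0.05; edgeR), when the spread was pooled over other libraries (370) or when either library was left out, and DESeq2 with the block called 142. Of the genes named here Gjb1 (0.97), Ttyh1 (0.997), Clec12a (1.01) and Fcgbp (−2.55) also lost the call at equal depth, Clec12a with DESeq2 (1.23), Clec12a (1.15) and Rnase1 (−3.93) without TMM, and Rnase1 (−3.86) and Defb1 (−2.60) under the study's cell limits.

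Between the milk bands the secretory lists had 1 call among them, a number to be read against the 1.29% of all genes called, and their medians lay between 0.16 and 0.41 on the log2 scale, against −0.0022 for all genes. Btn1a1 (log2 difference 0.21, SE 0.228, adjusted p = 0.727) and Xdh (0.35, SE 0.213, adjusted p = 0.474) did not pass the test between bands. These lists were other milk proteins, milk fat globule, lipid, cholesterol, lactose and mineral transport genes, and genes of translocation and folding in the endoplasmic reticulum. Over them Ltf was the gene called. Ltf, lactoferrin, an iron-binding defence protein, went from 4753 to 2121 CPM in F11 and from 8290 to 3298 CPM in D6 and was lower above 75% (adjusted p = 0.0431). The stem cell antigen gene Ly6a (−1.57) and the epithelial genes Cldn4 (−1.78) and Krt19 (−1.50) were lower too, of which Krt19 lost the call under the study's cell limits. Of 12 tested mature luminal genes 0 were higher and 3 lower, and of 15 involution and lysosome genes 0 and 3 (edgeR). Of all genes tested 1.1% were lower. The called involution and lysosome genes were Igfbp5, Saa2 (−1.90) and Saa1 (−1.54). Saa1 and Saa2 are close copies that may share reads, and both stood far higher in F11 than in D6. Saa2 lost its call without TMM and at 1000 genes per cell.

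Finer bands of milk share traced where each gene changed. The levels here are unscaled CPM of luminal cells below 25% and at 25 to 50% milk, then of milk-dominated cells at 50 to 65%, 65 to 75%, 75 to 85% and 85% or more. Btn1a1 ran through 73.3, 562, 734, 1075, 1097 and 993 CPM in F11 and 119, 1631, 1916, 1983, 2003 and 2069 in D6. It had reached 562 and 1631 CPM below 50% milk. Gjb1 climbed through the milk bands, with 5.43, 13.6, 28.6, 81.7, 114 and 170 CPM in F11 and 2.73, 18.6, 41.1, 62.5, 109 and 150 in D6. Cidea also kept climbing, from 696 to 14922 CPM in F11 and from 253 to 9537 CPM in D6 between the end bands. Egf went from 2.71 to 82.8 and from 3.64 to 164 CPM.

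Other named genes peaked at intermediate milk share or fell. Ltf ran through 1680, 6952, 6279, 2782, 1905 and 1980 CPM in F11 and 2323, 13768, 10286, 5992, 3021 and 2671 in D6. Ly6a peaked at 50 to 65% in both libraries, with 1175 CPM in F11 and 1322 in D6, against 351 and 236 at 85% or more. Igfbp5 peaked at 25 to 50% (631 and 1504 CPM) and ended at 33.7 and 17.9. Saa1, an acute phase protein gene, peaked at 65 to 75% in F11 (15246 CPM) and at 50 to 65% in D6 (195 CPM). Basp1 fell throughout in F11, from 62.4 to 0.673 CPM, and in D6 went from 111 CPM to 312 at 25 to 50% and then down to 0.576. Tph1 was low at 25 to 50% milk in D6, with 296, 4.89 and 3.46 CPM below 25%, at 25 to 50% and at 85% or more, and less so in F11, with 277, 95.9 and 4.04 CPM. The bands are not alike between libraries. Luminal cells below 50% milk had a median milk share of 34.1% in F11 and 7.78% in D6, and non-epithelial cells one of 25% and 5.08%. These bands are cut from the milk share and share libraries, so the order of the levels was not tested.

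In luminal cells of other FVB/NJ stages the leading genes followed different courses. The adult virgin mice were 10 weeks old, all FVB/NJ. The post-involution library, also FVB/NJ, is labelled 3 weeks post birth, while the paper places it 3 weeks after weaning. These are unscaled CPM of luminal cells below 50% milk, as mean ± SD over libraries. Egf was at 0.164 ± 0.176 in adult virgin glands (n = 3), 0.441 ± 0.234 at pregnancy day 12.5 (n = 2), 3.00 ± 1.35 at day 18.5 (n = 2), 4.24 ± 0.668 in lactation (n = 2) and 0.373 in the post-involution library, against 66.7 and 115 in the milk-dominated cells of F11 and D6. Btn1a1 was at 129.6 ± 84.2, 195 ± 5.26, 835 ± 124, 637 ± 298 and 242, against 997 and 1995. Btn1a1 stood higher in day 18.5 luminal cells than in those of lactation below the line, within the spread of lactation. Gjb1 had means of 0.532, 0.381, 3.18 and 10.8 at the 4 stages up to lactation, against 103 and 95.7. Cidea had means of 6.82, 32.8, 635 and 1177, against 8930 and 6971. Qsox1 was already at 126 ± 51.3 in adult glands and at 65.6 ± 0.143, 222 ± 11.6 and 312 ± 89.8 at the stages up to lactation, against 1714 and 2519. Drd4 was at 59.7 and 38.4 in the day 18.5 luminal cells of F4 and B4, close to the 60.8 and 39.2 of the lactation milk-dominated cells, and at 6.88 ± 5.73 in lactation luminal cells below the line.

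Lactation was next compared with pregnancy day 18.5 in milk-dominated cells alone, chosen by the same rule in both groups. Of 9956 genes tested 294 differed (2.95%; edgeR quasi-likelihood test, adjusted p under 0.05, n = 2 libraries per stage), 211 higher in lactation (2.12%) and 83 lower (0.834%). The median cell held 3814 UMIs outside milk in F4 and 6483 in B4, against 1987 in F11 and 4146 in D6, and non-epithelial cells had a median milk share of 2.97% in F4 and 1.38% in B4. The pregnancy cells stood almost all at 50 to 75% milk. With lactation cells of that range alone, an alternative chosen after seeing the data, 193 genes were called, and with each cell thinned to 500 UMIs outside milk 66. Leaving out B4 gave 64, F4 98, D6 477 and F11 547. The members compared here include the lactation cells of the comparison above, so the comparisons share cells.

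Some members of the milk protein and lipid lists were called higher in lactation. Pthlh, of the list of other milk proteins, stood at 10.04 and 6.75 CPM in F4 and B4 and 83.9 and 87.1 CPM in F11 and D6, 10.2-fold higher (log2 difference 3.35, SE 0.351, adjusted p = 0.00132). Ltf, lactoferrin, was at 601 and 712 CPM in F4 and B4 and 3015 and 4596 CPM in F11 and D6 (5.79-fold, adjusted p = 0.00680), and the whey acidic protein domain gene Wfdc3 at 244 and 145 CPM in F4 and B4 and 1504 and 774 CPM in F11 and D6. Cidea, the lipid droplet gene, was at 1656 and 2409 CPM in F4 and B4 and 9063 and 7116 CPM in F11 and D6 (3.98-fold, adjusted p = 0.0165). Olah, the thioesterase, was at 502 and 365 CPM in F4 and B4 and 1860 and 1346 CPM in F11 and D6 (3.70-fold), and Fads2 was higher by 1.67 on the log2 scale. With lactation cells at 50 to 75% milk, where the pregnancy cells lie, Cidea, Olah and Fads2 were no longer called (log2 difference 1.21, 1.35 and 0.90, edgeR), while Pthlh (3.08), Ltf (3.24), Wfdc3 (2.21) and Socs2 (2.16) were. Of the lists, 3 of 18 other milk proteins, 3 of 13 milk fat globule genes and 3 of 27 fatty acid and triglyceride genes were higher, each a larger share than the 2.12% of all genes, and 0 lower in each (edgeR). These counts come from all milk-dominated cells and include Cidea, Olah and Fads2, which lost the call with lactation cells at 50 to 75% milk. Fads2 also lost it at equal depth. The largest rise of the milk fat globule list was that of Fabp4 (5.50 on the log2 scale), which is also a gene of adipocytes and endothelium. Socs2, a feedback inhibitor of prolactin signalling that STAT5 induces, was at 12.6 and 10.3 CPM in F4 and B4 and 50.5 and 62.2 CPM in F11 and D6 (4.93-fold, adjusted p = 0.00680), the 1 called gene of 18 in its pathway. The surface genes Tspan8 (3.99) and Ly6a (4.55) and the protease inhibitor Timp1 (3.41) were higher as well, of which Tspan8 lost its call at equal depth (2.24) and Timp1 without B4 (edgeR).

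Much of the secretory programme did not pass the test between stages. Btn1a1 was at 772 and 1395 CPM in F4 and B4 and 1012 and 2036 CPM in F11 and D6 (log2 difference 0.49, SE 0.427, adjusted p = 0.670), with the libraries of the stages overlapping. Xdh was at 211 and 419.6 CPM in F4 and B4 and 323 and 467 CPM in F11 and D6 (log2 difference 0.33, SE 0.392, adjusted p = 0.780), and B4galt1 at 851 and 1198 CPM in F4 and B4 and 1247 and 1003 CPM in F11 and D6 (adjusted p = 0.905). Of 13 genes of lactose synthesis and 20 of cholesterol synthesis, 0 were called (edgeR), and of 39 endoplasmic reticulum genes 1 was higher, Sec62 (1.55), which was not called with lactation cells at 50 to 75% milk (0.94, edgeR). Of 24 mineral and ion transport genes 2 were higher and 1 lower. With 2 libraries a stage, a p that misses the threshold does not show that levels were alike.

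Of the genes that led the comparison with other luminal cells, some were higher in lactation here as well. Egf was at 5.52 and 13.9 CPM in F4 and B4 and 67.7 and 117 CPM in F11 and D6 (log2 difference 3.24, SE 0.475, adjusted p = 0.00824, edgeR). Gjb1 was at 5.02 and 17.1 CPM in F4 and B4 and 104 and 97.7 CPM in F11 and D6 (log2 difference 3.17, SE 0.480, adjusted p = 0.00977, edgeR). Steap1, Qsox1 and H2-Q1 were also higher, with log2 differences of 2.34, 2.23 and 3.62 (adjusted p = 0.00897, 0.0143 and 0.0388, edgeR). Most pregnancy cells stood at 50 to 65% milk (451 of 471 in F4 and 322 of 350 in B4). In F11 and D6 cells of that range Egf was at 13.9 and 36.0 unscaled CPM and Gjb1 at 28.6 and 41.1. Steap1 was at 23.4 and 28.2, Qsox1 at 632 and 1216, and H2-Q1 at 41.7 and 149. On the same unscaled measure, all milk-dominated cells of F4 and B4 held 5.96 and 13.4 CPM of Egf and 5.42 and 16.4 of Gjb1. Steap1 was at 9.21 and 14.7 there, Qsox1 at 380 and 542, and H2-Q1 at 8.66 and 32.0. The range of 50 to 65% was not tested on its own. Atp2b2 (log2 difference 1.59, adjusted p = 0.189) and Slc34a2 (1.42, adjusted p = 0.188) did not pass the test between stages (edgeR). Ccl28 was at 4.02 and 23.8 CPM in F4 and B4 and 500.0 and 156 CPM in F11 and D6, with both lactation libraries above pregnancy, and did not pass the test (log2 difference 4.54, SE 0.958, adjusted p = 0.0861, edgeR). Drd4 lay the other way, at 129.6 and 128 CPM in F4 and B4 and 61.7 and 40 CPM in F11 and D6, and did not pass either (log2 difference −1.34, SE 0.325, adjusted p = 0.0625, edgeR).

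The largest fall in lactation was that of Car4, a membrane carbonic anhydrase. It stood at 134 and 263 CPM in F4 and B4 and 7.03 and 4.87 CPM in F11 and D6, 33.8-fold lower (log2 difference −5.08, SE 0.454, adjusted p = 0.000615). The water and glycerol channel Aqp3 was at 58.8 and 184 CPM in F4 and B4 and 11.5 and 11.9 CPM in F11 and D6, and the complement component C3 at 374 and 419 CPM in F4 and B4 and 61.4 and 19.8 CPM in F11 and D6. Gjb6, connexin 30, was at 89.9 and 32.8 CPM in F4 and B4 and 3.44 and 9.23 CPM in F11 and D6, and Fam3c, a secreted factor, at 329.9 and 214 CPM in F4 and B4 and 45 and 20.03 CPM in F11 and D6. At equal depth Aqp3 (−3.27) and Gjb6 (−2.61) were not called, nor Gjb6 without TMM (−3.30), nor C3 at a milk limit of 40% (edgeR). With a single pregnancy library, Gjb6 and C3 lost the call whichever was left out, and Fam3c without F4. Pabpc1, the poly(A)-binding protein, was the called gene of translation control, at 401 and 723 CPM in F4 and B4 and 149 and 189 CPM in F11 and D6 (log2 difference −1.73), and was not called with lactation cells at 50 to 75% milk (−1.46, edgeR).

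**Figure D5:**
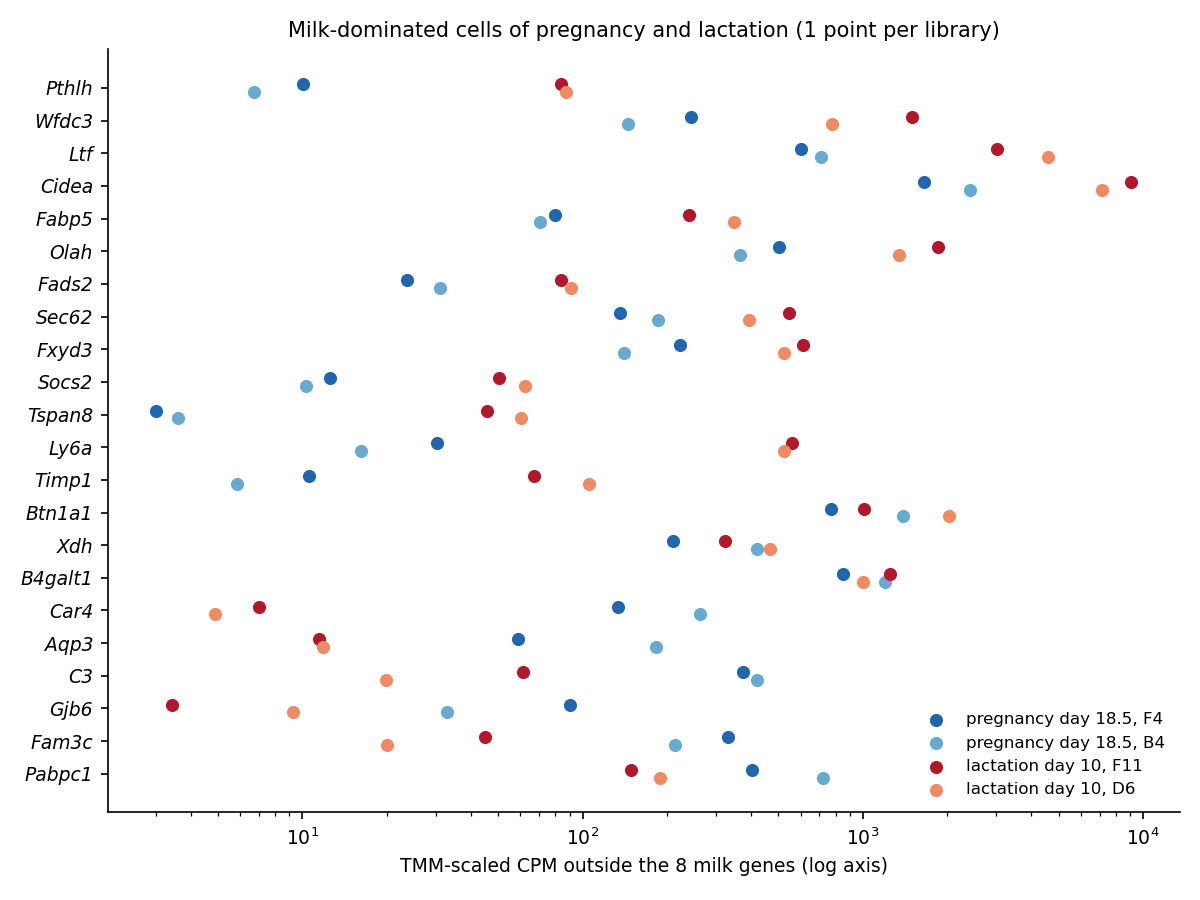
TMM-scaled CPM outside the 8 milk genes (x axis, log scale) of named genes (y axis) in milk-dominated cells of pregnancy day 18.5 (F4, B4) and lactation (F11, D6), 1 point per library. Pthlh, at 10.0 and 6.75 CPM in pregnancy, lies at 83.9 and 87.1 CPM in lactation, Car4 runs the other way, and the points of Btn1a1 and Xdh overlap between stages.

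The genes with the largest rise in lactation included markers of other cells. Cfd, the adipocyte factor adipsin, had 0 counts in both pregnancy libraries and 350.0 and 329.8 CPM in F11 and D6, a rise of at least 457-fold when 3 counts, summed over both pregnancy libraries, are taken as the lowest detectable level. D730048I06Rik (at least 355-fold), the beta-globin gene Hbb-bs (at least 299-fold) and resistin, Retn (at least 66.5-fold), also had 0 counts in pregnancy. Car3, Hba-a1 and Orm2, with 1 count each, had ratios of 368 (counting interval 66.0 to 14554), 507 (90.9 to 20033) and 325 (58.3 to 12849). Globin and orosomucoid genes have close copies that may share reads. Fabp4, another adipocyte and endothelial gene, was at 24.6 and 19.3 CPM in pregnancy and 1064 and 918 in lactation.

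Summed over each list, non-epithelial markers stood higher in both lactation libraries. In unscaled CPM, the 15 immune genes summed to 13.5 and 16 in F4 and B4 and 160 and 219 in F11 and D6, and 7 of 9 tested were higher in lactation. Ptprc, Csf1r and Laptm5 were at 0 counts in both pregnancy libraries. The 12 endothelial and mural genes summed to 20.04 and 19.9 and to 103 and 97.9 CPM (7 of 9 higher), with Cdh5, Emcn and Flt1 at 0 in pregnancy. The 10 fibroblast genes summed to 47.7 and 19.4 and to 99.0 and 138 CPM (3 of 7), with Fbln1 and Dpt at 0 in pregnancy. The 9 adipocyte genes summed to 243 and 231 and to 728 and 620.0 CPM (5 of 9), and the 6 erythroid genes to 1.08 and 0.432 and to 245 and 413 CPM (4 of 4). Of all genes tested 2.12% were higher. Genes at or near 0 counts in pregnancy could pass the low-count filter only through lactation. The shares called in these non-epithelial lists are therefore no test of the lists. The 14 basal genes, an epithelial list, summed to 2508 and 835 CPM in pregnancy and 1566 and 254 CPM in lactation, with 0 called (edgeR). Cells with 3 or more UMIs of a non-epithelial set made 0% of F4, 0.571% of B4, 1.76% of F11 and 3.40% of D6 milk-dominated cells. Without them 6 immune, 4 endothelial and mural, 1 fibroblast, 5 adipocyte and 3 erythroid genes were called higher, among 235 calls. Of all 9854 genes tested in that setting 163 were higher. The low-count filter acts there in the same way, so these counts are no test of the lists either. The part of free or foreign RNA in the other differences between stages was not tested.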

How the data were processed

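Single-cell RNA was captured with the 10x Genomics Chromium 3′ kit from sorted mammary epithelium. The authors processed the reads with Cell Ranger against mm10, and the matrices were deposited as counts: whole numbers of UMIs per gene and barcode, not normalized. Version 3.0.2 stands in the headers of the lactation matrices, and 3.1.0 in the submitters' processing notes. The library labels F11, D6, F4 and B4 gave the groups.

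Cells with 500 or more genes and less than 20% mitochondrial UMIs were kept, so milk-rich barcodes with fewer genes were left out. No doublet caller was run. Cells with 3 or more UMIs of a non-epithelial marker set were left out as an alternative. Counts were summed per library and band of milk share, since cells are not replicates, and tested with edgeR 4.0.16 (glmQLFit with robust spread, TMM, filterByExpr) in R 4.3.3, with Benjamini-Hochberg adjusted p under 0.05. Library size was the UMIs outside the 8 milk genes, 2122508 to 11028502 per sum within lactation. Milk genes, 4 keratins and mitochondrial genes were left out of the tests. In the comparison of bands the library was a block, because the bands of a library come from the same pooled animals, which is what pairs them. The comparison of stages had no block. The number of libraries, 2 per stage, limits the precision.

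Members and gene lists were chosen with earlier results of these data known. Genes were named where they were called, had the same sign in both libraries (between stages, no overlap) and reached 50 CPM in the higher group: the 10 largest rises and 10 falls in the first comparison and 5 and 5 in the others. Btn1a1, Xdh and up to 3 called members of each of the 27 lists were added, save the lists of the milk genes and keratins. Where no member of a list was called, its most abundant member was added. In the first comparison Fasn, Lpl, Mki67, Pigr, Prlr, Socs2, Stat5b, Thrsp and Trf fell outside this rule and were named after their values were seen. The scripts were tested on simulated data. Alternatives were DESeq2 1.42.0, no TMM, no filter, other milk limits, 1000 genes per cell, the study's cell limits, cells with luminal keratins, luminal cells at 25 to 50% milk, equal depth, no block, a pooled spread and each library left out. Promoters came from RefSeq on GRCm38.p6.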

Additional observations from a re-analysis of the deposited data

How the results depend on the processing

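The comparison with luminal cells below 50% milk gave 3714 calls, between 3567 and 4553 with other milk limits, luminal members alone, no TMM, no filter or the study's cell limits, and 2931 without cells carrying non-epithelial markers. DESeq2 gave 2461, cells of 1000 genes or more 2451, comparison cells at 25 to 50% milk 1801, and equal depth 1435. The pairing came from the pooled animals that the bands of a library share. No replicate block gave 1537, and a spread pooled over other FVB/NJ libraries 1488. Leaving out a library gave 0 (D6) to 347 (F11).

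Between milk bands 135 genes were called, and 65 at equal depth, 502 without the filter, 241 without cells carrying non-epithelial markers, 0 with no replicate block (466 at unadjusted p under 0.05; edgeR), 0 with the pooled spread (370) and 0 without either library (212 without D6, 213 without F11). DESeq2 called 142.

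Between stages 294 genes were called. The count was 66 at equal depth, 89 at a milk limit of 60%, 193 with lactation cells at 50 to 75% milk (chosen after seeing the data), 817 without the filter, 388 with DESeq2 and 64 (without B4) to 547 (without F11) with a library left out, the lone library being taken to vary like the other stage. No paired analysis was made between stages, because their libraries came from different pools of animals. The study gives replicate numbers within both stages, and the fit did not use them. The rule found 809 cells in F11 at 1000 genes or more, against 3075 at 500.

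Without cells carrying non-epithelial markers, the log2 difference of 13 named markers turned from below to above 0. The values were Fabp4 (0.76), H2-Aa (1.18), C1qb (1.38), Tyrobp (0.59), Flt1 (0.0351), Kdr (0.44), Cdh5 (0.36), Col1a2 (3.02), Col3a1 (1.502), Adipoq (1.13), Cfd (1.22), Car3 (0.73) and Hbb-bs (0.0034), of which Flt1, Kdr, Cdh5, Hbb-bs, Tyrobp and Adipoq did not pass the test there. That setting removes cells by such markers, mostly from the luminal cells. Of the other values of named genes under the alternatives, 1792 kept direction and side of the threshold, 13 values of 10 comparisons of uncalled genes turned sign without a call, 379 kept direction and lost the call, and 19 kept direction and gained it. Of 81 called genes named in the first comparison, 81 lost the call without D6, 64 without F11, 23 with the pooled spread, 20 without the block, 20 against luminal cells at 25 to 50% milk and 12 at 1000 genes per cell. Cel, Krt19, Cldn4 and Malat1 were among those lost with the pooled spread, and Areg, Cldn4, Stmn1 and Malat1 among those lost without the block. Of 28 between stages, 7 lost it at equal depth, Fads2, Orm2 and Fabp5 among them, and 8 at a milk limit of 60%, with Pabpc1, Sec62 and Socs2. A larger number lost it when either B4 or F4 was left out, fits with a single pregnancy library. Wfdc3, Olah, Fads2 and Socs2 lost it in both of those. Except in the settings named, the cause was not tested. F11 was the shallower library, which limits genes of low level there.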

Other observations

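The milk-dominated cells of F11 and D6 were closely alike in most genes and far apart in a few. These are values of 1 library each, chosen after their values were seen, with no test, and folds are ratios of CPM plus 1, slightly under the plain ratio. Of 2395 genes at 50 CPM or more (TMM-scaled, outside the milk genes) in either library, 2187 (91.3%) lay within 2-fold, while 11 were 8-fold or more higher in F11 and 0 in D6. Acute phase serum amyloid genes led: Saa2 stood at 10505 CPM in F11 and 48.7 in D6 (211-fold), Saa3 at 3561 and 16.7 (202-fold), and Saa1 at 10463 and 99.7 (104-fold). These genes are close copies of each other and may share reads. The difference was there in luminal cells below 50% milk too, where Saa1 stood at 3271 CPM against 44.5 in D6. The calprotectin genes S100a8 (628 and 32.2 CPM) and S100a9 (129 and 0.720 CPM), known from neutrophils and from stressed epithelium, followed the same direction.

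Contractile genes of basal cells were also higher in F11, with Acta2 at 584 and 64.0 CPM (8.999-fold), as were the chemokine gene Cxcl14 (10.3-fold) and the lipase inhibitor gene Angptl4 (9.80-fold). Heat shock genes lay the other way, with Hspa1b at 23.2 CPM in F11 and 180 in D6 (7.46-fold higher in D6) and Hspa1a at 102 and 516 (5.01-fold), and the angiogenic factor gene Vegfa was 4.40-fold higher in D6. Hspa1a and Hspa1b are near-identical and may share reads. The milk share of non-epithelial cells, 25% in F11 and 5.08% in D6, and the cell depth differed along with these genes, and their part was not tested.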
